A study of Mus musculus with 44 samples.

Results

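The genes described here encode the machinery that starts transcription: the subunits of RNA polymerases I, II and III, the TATA-binding protein associated factors (Taf), the general factors TFIIA, TFIIB, TFIIE, TFIIF and TFIIH, and the Mediator complex. They were taken by name, as every gene of the expression table whose symbol begins with Polr1, Polr2 or Polr3, with Taf or Med and a digit, or with Gtf2 and one of the letters a, b, e, f and h, leaving out Taf7l and pseudogenes. The rule found 94 of 35269 genes. Of these, 93 encode protein subunits or close relatives of them. The other, Med9os, is an antisense gene beside Med9 that had reads in 10 of 44 embryos and was the only member to fail the filter on low values.

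RNA was sequenced from 44 single C57Bl/6 mouse embryos at the 2-cell stage, from 6 litters of natural matings. The groups were 14 control embryos (WT, Dppa2/4+/+ parents; 10 embryos of mating 1 and 4 of mating 2), 15 heterozygous embryos of maternal knockout females and WT males (HET1; 7 and 8), and 5 heterozygous and 10 homozygous embryos of maternal knockout females and heterozygous males (HET2; 4 and 1, and HOM, Dppa2/4-/-; 3 and 7). All mothers of the HET1, HET2 and HOM embryos carried floxed Dppa2/4 and Zp3-Cre, which acts in growing oocytes, so these embryos lacked maternal Dppa2/4 while WT embryos did not. HET2 and HOM embryos were littermates that the study told apart by their Dppa2 and Dppa4 transcripts, so those levels are not independent of the label. Dppa2 had a median of 8.39 log2 RPM (reads per 1e6 reads of the library) in WT, 6.10 in HET1, 6.11 in HET2 and 1.86 in HOM embryos, and Dppa4 had medians of 7.12, 5.73, 5.24 and 1.86. Litter and genotype cannot be told apart for WT and HET1, whose 2 litters each came from separate matings. The total reads per embryo were 637704 to 3163026 in WT, 247667 to 1830316 in HET1, 698469 to 2136068 in HET2 and 418558 to 3048642 in HOM embryos.

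Polymerase II makes messenger RNA, polymerase I makes the large ribosomal RNA precursor, and polymerase III makes transfer RNA and other small RNAs. At polymerase II promoters TFIID binds first, through the TATA-binding protein and its Taf subunits, and TFIIA, TFIIB, TFIIF, TFIIE and TFIIH join to position the polymerase and open the DNA, while Mediator links them to activators. The SL1 complex does the work of TFIID at polymerase I promoters. The 2-cell embryo inherits much of this machinery from the oocyte and first uses it to switch on its own genome, at a time when the oocyte's messenger RNA is being cleared.

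All values below are log2 RPM, and values under 1.86 (3.63 RPM, the value of a gene without reads in the shallowest embryo) were raised to that floor so that depth did not set the lowest values. Reads were counted without regard to strand, and 32 of the 94 members share exon bases with another gene. Values are relative to the reads of each embryo, so total RNA was not measured. Less RNA of a gene cannot be told apart from more RNA of other genes in the same embryo. Of the 94 genes, 68 had at least 1 read in all 44 embryos. The members together took a median of 9335 RPM in WT, 9935 in HET1, 8197 in HET2 and 10490 in HOM embryos. Their sums overlapped between all groups, from 6834 RPM in the lowest WT embryo to 12435 RPM in the highest HOM embryo.

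Subunits of one complex differed widely in level per length in WT embryos. Levels between genes were compared per kilobase of exon, as mean log2 RPM per kilobase over the 14 WT embryos. The length joins the exons of all annotated transcripts of a gene, from 624 bases for Polr2k to 15427 for Med13l among the subunits. It can exceed that of the messenger RNA present, so the orders below depend on it. Its part, and that of read coverage along long transcripts, was not tested. Polymerase II ranged from 1.98 ± 1.17 (SD) for Polr2a, the largest catalytic subunit, and 4.57 ± 0.74 for Polr2b, the second largest, to 6.36 ± 0.86 for the small subunit Polr2j. In polymerase I the large subunits Polr1a (1.64 ± 0.87) and Polr1b (1.77 ± 1.27) were the lowest, and Polr1d (5.59 ± 0.42) and Polr1c (5.44 ± 0.74), which polymerase III also holds, were the highest. In polymerase III, Polr3k was highest at 5.64 ± 0.64, against 2.85 ± 1.22 for the large subunit Polr3a and 2.27 ± 0.99 for Polr3b. Among the subunits shared by the 3 polymerases, Polr2k reached 7.92 ± 1.27 and Polr2l 4.36 ± 0.93.

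In TFIID, the reads over Taf9 gave 8.50 ± 0.37, but 1564 of its 2120 exon bases are also exon of Ak6 on the same strand, so this level cannot be assigned to Taf9 and is not ranked here. The lowest member of TFIID was Taf8 at 2.45 ± 0.62, and Taf1, the scaffold subunit, had 3.26 ± 0.64. In TFIIH, which opens the promoter DNA, Gtf2h1 had 5.74 ± 0.89 and Gtf2h3 1.10 ± 1.08. TFIIF was even, with 6.10 ± 0.60 for Gtf2f2 and 5.90 ± 1.20 for Gtf2f1. In SL1, Taf1d had 5.53 ± 0.52 and Taf1c 2.00 ± 1.34. In Mediator, the highest of each module were Med6 in the head (6.10 ± 1.10), Med31 in the middle (6.91 ± 0.72), Med29 in the tail (6.64 ± 0.91) and Med13 in the kinase module (5.21 ± 0.55). The lowest were Med18 (0.95 ± 0.22), Med26 (2.96 ± 1.57), Med15 (1.12 ± 0.99) and Med12l (0.15 ± 1.10). Members with few reads stand at the floor divided by their length, as Med18 did, with reads in 18 of 44 embryos.

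**Figure D1:**
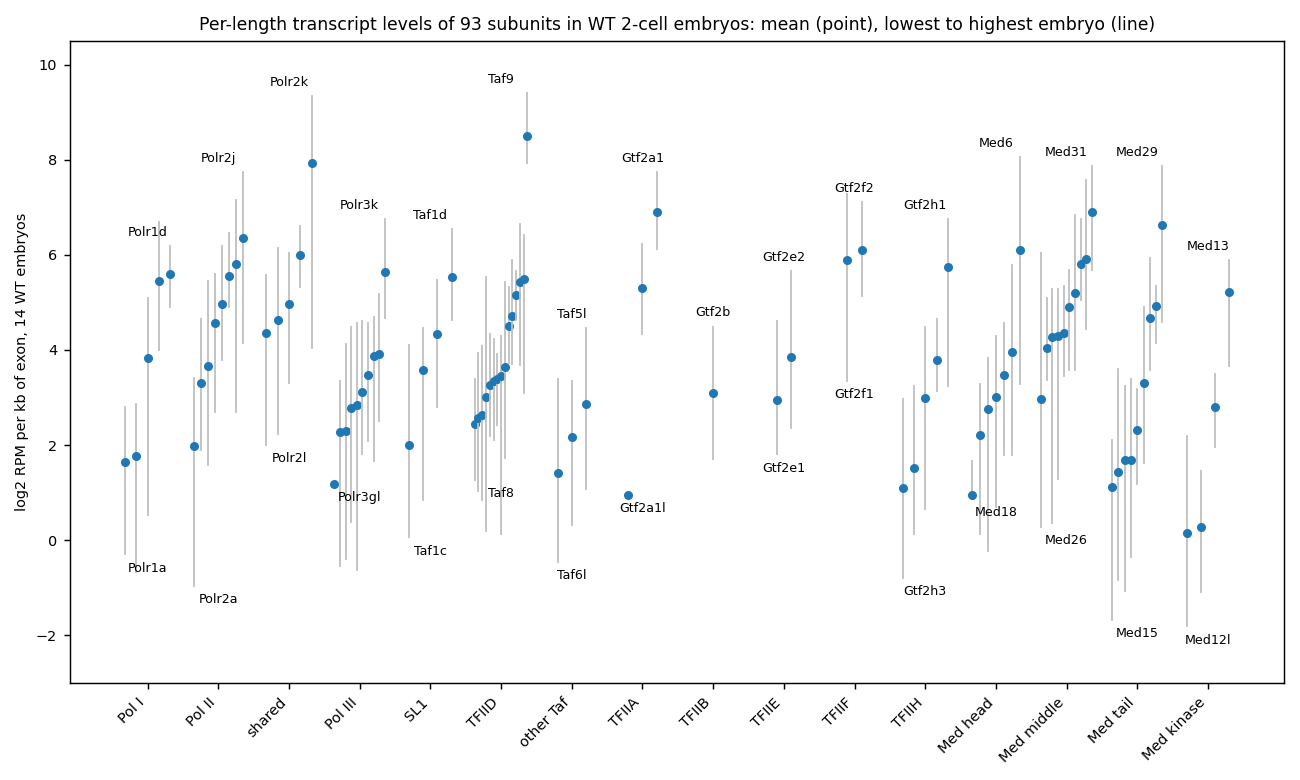
Each point is the mean of a gene over 14 WT embryos in log2 RPM per kilobase of exon, and each line runs from the lowest to the highest embryo, with genes grouped by complex and the highest and lowest gene of a group named. The means span 0.15 (Med12l) to 8.50 (Taf9, whose reads include those of Ak6), and every complex of 3 or more members holds genes well apart from each other.

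Several subunits exist as pairs of related genes, and in 4 of the 7 pairs whose reads could be compared the same gene was higher in at least 43 of 44 embryos. Gtf2a1, the large TFIIA subunit, was higher per length than its germ cell relative Gtf2a1l in 44 of 44 embryos, and Gtf2a1l had only 17 reads in 8 embryos in all. Polr3g, a polymerase III subunit of early embryonic cells, was higher than the more general Polr3gl in 43 of 44 embryos, and Polr3gl had 27 reads in 12 embryos. Taf4b, the Taf4 paralogue known from ovary and testis, was higher than Taf4 in 43 of 44 embryos, with a median difference for Taf4 minus Taf4b of -2.13. Med13 was higher than Med13l in 44 of 44 embryos, with a median difference of 2.20. Taf9 and Taf9b were not ordered, since the reads over Taf9 are shared with Ak6. Med12 was higher than Med12l in 30 and lower in 14 embryos, so their order was mixed across embryos. Taf5 and Taf6 were higher than their relatives Taf5l and Taf6l, which belong to the SAGA complex, in 31 and 38 of 44 embryos. The order of Taf5 and Taf5l was mixed too and was not the same in all groups, with a mean Taf5 minus Taf5l of 1.84 in WT and -0.37 in HOM embryos.

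No member passed the test between HOM and WT embryos. The comparison asks whether embryos with neither maternal nor zygotic Dppa2/4 hold other levels of the transcription machinery than WT embryos. limma called 0 of 93 members at an adjusted p of 0.05, with a smallest adjusted p of 0.12. At an unadjusted p under 0.05 there were 30 members (32.3%), beside 14.5% of all genes and 21.2% of genes with a mean of at least 3 log2 RPM. It called 0.0183% of all 16412 genes tested. limma voom on recovered reads called 0 members too. The median difference of the members was 0.30, beside 0.09 for all genes and 0.24 for the 6919 genes with a mean of at least 3 log2 RPM. With limma voom on recovered reads it was 0.20 beside 0.44 for all genes. When each embryo was re-centred on its median it was -0.01 beside -0.22 for all genes, a shift that re-centring gives to every gene alike. Without the common floor the median of all genes itself shifted, by 0.49 in HOM and 0.61 in HET1 embryos, and it shifted by 0.09 and 0.05 with it.

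Differences here and below are those of group or litter means as fitted by limma, also where medians are printed beside them. The core subunits are given here with their 95% intervals. These treat embryos as independent although each group came from 2 litters, so they are too narrow as limits, and with litter as a random effect the smallest adjusted p of the members was 0.83 (limma). Polr2b had medians of 6.97 in WT and 6.75 in HOM embryos, a difference of -0.02 with a 95% interval of -0.51 to 0.47 (adjusted p = 1, limma). Gtf2a1 differed by 0.09 (-0.23 to 0.42; adjusted p = 0.83, limma) and Med14, the Mediator scaffold, by -0.08 (-0.57 to 0.40; adjusted p = 0.92, limma). Polr2a was less well measured, with 1.86, 4.92 and 6.22 as the lowest, median and highest WT embryo and 4.27, 5.58 and 6.94 in HOM embryos, and a difference of 0.70 (-0.30 to 1.70; adjusted p = 0.52, limma). Of the other large subunits, Polr1a differed by 0.48 (-0.28 to 1.25), Polr1b by 0.93 (0.05 to 1.80) and Polr3a by 0.65 (-0.25 to 1.55), and Taf1 by -0.37 (-1.19 to 0.46), none of them called.

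The members nearest to the threshold between HOM and WT were Taf5, a TFIID core subunit, and the Mediator tail subunit Med24. Taf5 had 5.40, 6.39 and 7.59 as the lowest, median and highest WT embryo and 4.26, 5.17 and 6.77 in HOM embryos, a difference of -1.02 ± 0.28 (SE; adjusted p = 0.12, limma). Med24 had 1.87, 4.05 and 6.31 in WT and 4.26, 5.66 and 7.06 in HOM embryos, a difference of 1.58 ± 0.47 (SE; adjusted p = 0.14, limma). The values of both genes overlapped between the groups.

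HET2 embryos did not differ from WT by the test either, with 0 of 93 members called, 13 at an unadjusted p under 0.05, where 8.52% of all genes had one too, and 0.0305% of all genes called. The largest difference was that of Gtf2h2, a TFIIH core subunit. Its HET2 values were 1.86 to 2.17 in the 4 mating 1 embryos and 5.02 in the single mating 2 embryo, against a WT median of 5.30, a difference of -2.60 ± 0.62 (SE; adjusted p = 0.14, limma). Without the mating 2 embryo the difference was -3.20 and passed (adjusted p = 0.014, limma; 0.0059 to 1 over all 28 alternatives). With array weights, which kept this embryo, Gtf2h2 passed as well (adjusted p = 0.011, limma). HOM and HET2 littermates, compared with the litter in the fit, had 0 of 93 members and 0.0122% of all genes called. At an unadjusted p under 0.05 there was 1 member (Taf1c), or 1.08%, beside 4.36% of all genes. Polr2b differed by 0.05 (95% interval -0.27 to 0.37) between these littermates and Polr2a by 0.90 (-0.54 to 2.34), both with adjusted p values above the threshold.

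**Figure D2:**
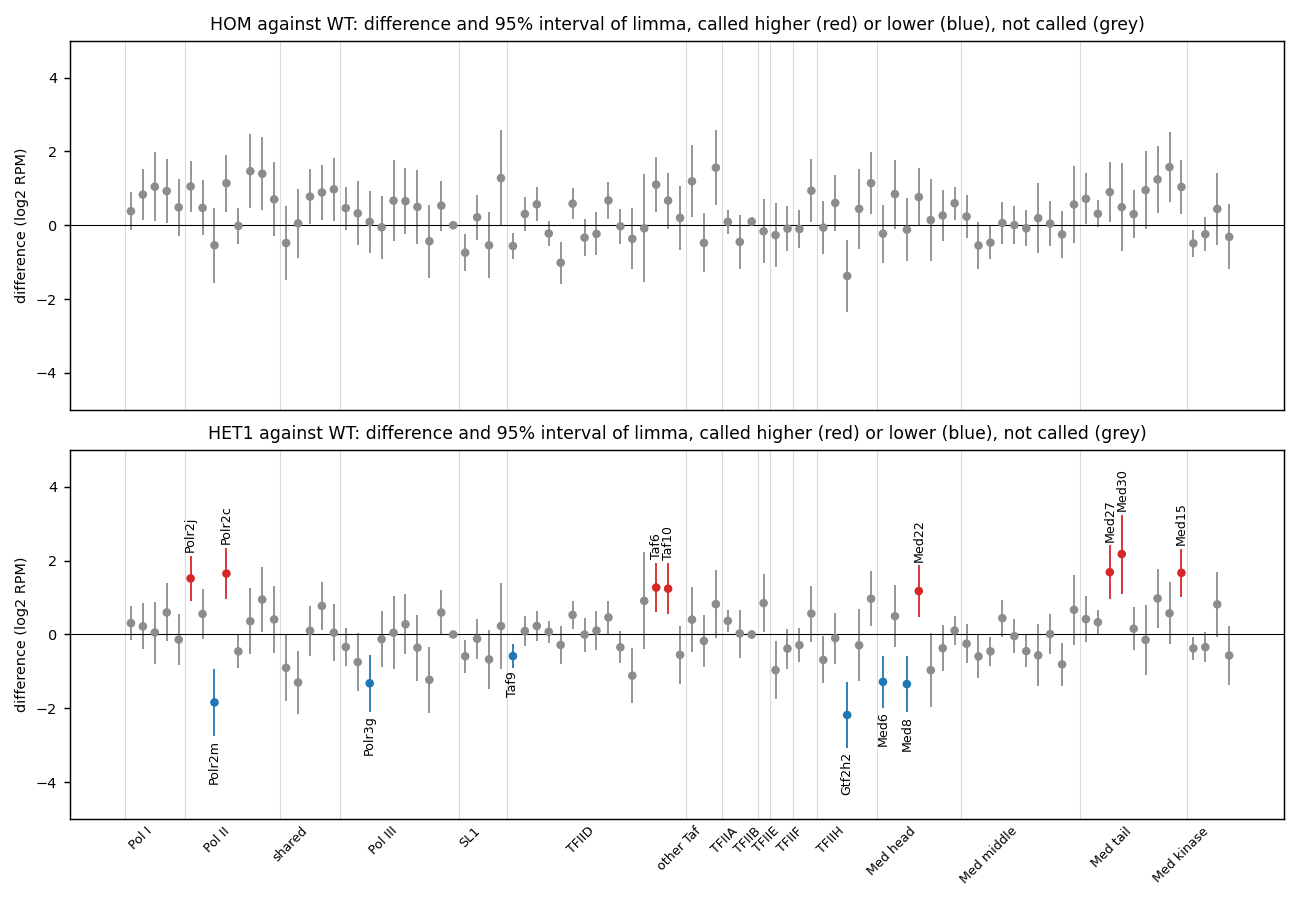
Difference in log2 RPM from WT for 93 members, with the 95% interval of limma, ordered by complex; the upper panel is HOM (10 embryos) and the lower HET1 (15 embryos), both against 14 WT embryos. No member is called in HOM, while 8 are higher (red) and 6 lower (blue) in HET1.

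HET1 embryos, which have the paternal Dppa2/4 alleles of a WT father, differed from WT in 14 members when embryos were taken as replicates. With litter as a random effect or litter means as replicates, 0 members and 0 of all genes were called (smallest adjusted p of the members 0.21 and 0.99, limma), so the values below describe these embryos of 2 litters a group. Over embryos, limma called 8 higher and 6 lower, 15.1% of the 93 tested, where it called 4.54% of all genes (2.49% higher and 2.05% lower) and 9.44% of the genes with a mean of at least 3 log2 RPM. The excess over all genes depended on the floor. On the deposited values without it, 20 members and 4054 of 16412 genes were called, and with limma voom on recovered reads 16 members and 2520 genes. Of the 93, 50 had a positive and 43 a negative difference, and the median was 0.03, beside 0.05 for all genes. The median was -0.15 with re-centring, beside -0.13 for all genes, which re-centring shifts alike. It was -0.33 without the mating 1 litter of HET1 (all genes 0.00) and 0.28 without the mating 2 litter (all genes 0.09). The called genes came from polymerase II (Polr2c, Polr2j and Polr2m), polymerase III (Polr3g), TFIID (Taf6 and Taf10), TFIIH (Gtf2h2) and Mediator (Med6, Med8, Med15, Med22, Med27 and Med30), 13 in all, and the last call was that of the reads over Taf9, which cannot be told apart from those of Ak6. No gene of polymerase I, SL1, TFIIA, TFIIB, TFIIE or TFIIF was called.

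Among the higher genes, Polr2c, which nucleates the assembly of polymerase II, lies on chromosome 8 (94857450-94873535, GRCm38, + strand) and had 6.18, 7.33 and 8.58 as the lowest, median and highest WT embryo and 7.40, 9.06 and 10.38 in HET1 embryos. The difference was 1.65 ± 0.34 (SE; adjusted p = 0.0045, limma), and 11 of 15 HET1 embryos lay above every WT embryo. Polr2j, on chromosome 5 (136116631-136122947), had 4.30, 6.65 and 7.88 in WT and 6.75, 8.26 and 9.32 in HET1 embryos, a difference of 1.52 ± 0.30 (SE). Both share exon bases with a gene on the opposite strand, Polr2c with Dok4 (953 bases) and Polr2j with Lrwd1 (176 bases).

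In the Mediator tail, where activators bind, Med15, Med27 and Med30 were higher in HET1. Med15, on chromosome 16 (17651208-17732891), had 1.86, 4.85 and 5.65 in WT and 5.19, 6.44 and 7.60 in HET1 embryos, a difference of 1.67 ± 0.32 (SE; adjusted p = 0.0026, limma), with 11 of 15 embryos above every WT value. Med27 rose by 1.69 ± 0.36 (SE) and Med30 by 2.18 ± 0.53 (SE). Of the 9 tail subunits, 8 had a positive difference (median 0.57) and 3 passed, where 59.6% of all genes had a positive difference. In HOM against WT all 9 had a positive difference (median 0.90) and 0 passed, where 64.5% of all genes had one.

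The TFIID subunits Taf6 and Taf10, which contribute to its histone-fold core, rose by 1.27 ± 0.33 and 1.24 ± 0.34 (SE). Taf10 shares 2106 of its 4584 exon bases with Ilk and Taf6 shares 1185 of 4476 with Ap4m1, both on the opposite strand. The head subunit Med22 rose by 1.18 ± 0.35 (SE).

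The lower genes included Gtf2h2, on chromosome 13 (100460218-100492579), with 2.88, 5.30 and 6.70 in WT and 1.86, 3.14 and 4.62 in HET1 embryos, a difference of -2.18 ± 0.44 (SE; adjusted p = 0.004, limma). Polr2m, which encodes Gdown1, a polymerase II binding protein, lies on chromosome 9 (71478437-71485935) and had 6.17, 6.72 and 7.74 in WT and 1.86, 5.36 and 6.85 in HET1 embryos, with 11 of 15 HET1 embryos below every WT embryo. Med8 and Med6 of the head, with differences of -1.34 ± 0.38 and -1.28 ± 0.35 (SE), and Polr3g, with -1.32 ± 0.38 (SE), were lower too. The reads over Taf9, shared with Ak6, differed by -0.59 ± 0.16 (SE).

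The HET1 calls depend on which litters enter. Without the mating 2 litter of HET1 no member passed, and 6 of all genes did. Without the mating 1 litter 27 members passed (29.0%), beside 14.3% of all genes, and without the WT litter of mating 1 only Polr2j did, beside 1.74% of all genes. With total reads as a covariate 0 members and 0 of all genes were called. The total reads had a median of 528166 in HET1 and 1770010 in WT embryos, so that depth moves with the group, and its part in these differences was not tested. The summed RPM of 7 markers of the 2-cell programme had medians of 310 in HET1 and 147 in WT embryos, and that of 6 oocyte transcripts 4697 and 2740, and their part was not tested either. Of the 14, 7 were also called between the HET1 litters, where 38.7% of the 93 members and 16.6% of all genes were called.

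Of 62 partner genes of these complexes (the TATA-binding protein family, TFIIH kinase, elongation, pausing and polymerase assembly factors and the factors of polymerases I and III), 6 passed between HET1 and WT, or 9.68%, which is close to the 9.44% of all genes with a mean of at least 3 log2 RPM and above the 4.54% of all genes. Nelfa, of the pausing factor NELF, and the polymerase II phosphatase Ssu72 were higher, and Mnat1 of the TFIIH kinase, the elongation factors Ell2 and Eaf1, and Supt16 of the histone chaperone FACT were lower. No partner passed between HOM and WT, between HET2 and WT or between HOM and HET2.

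**Figure D3:**
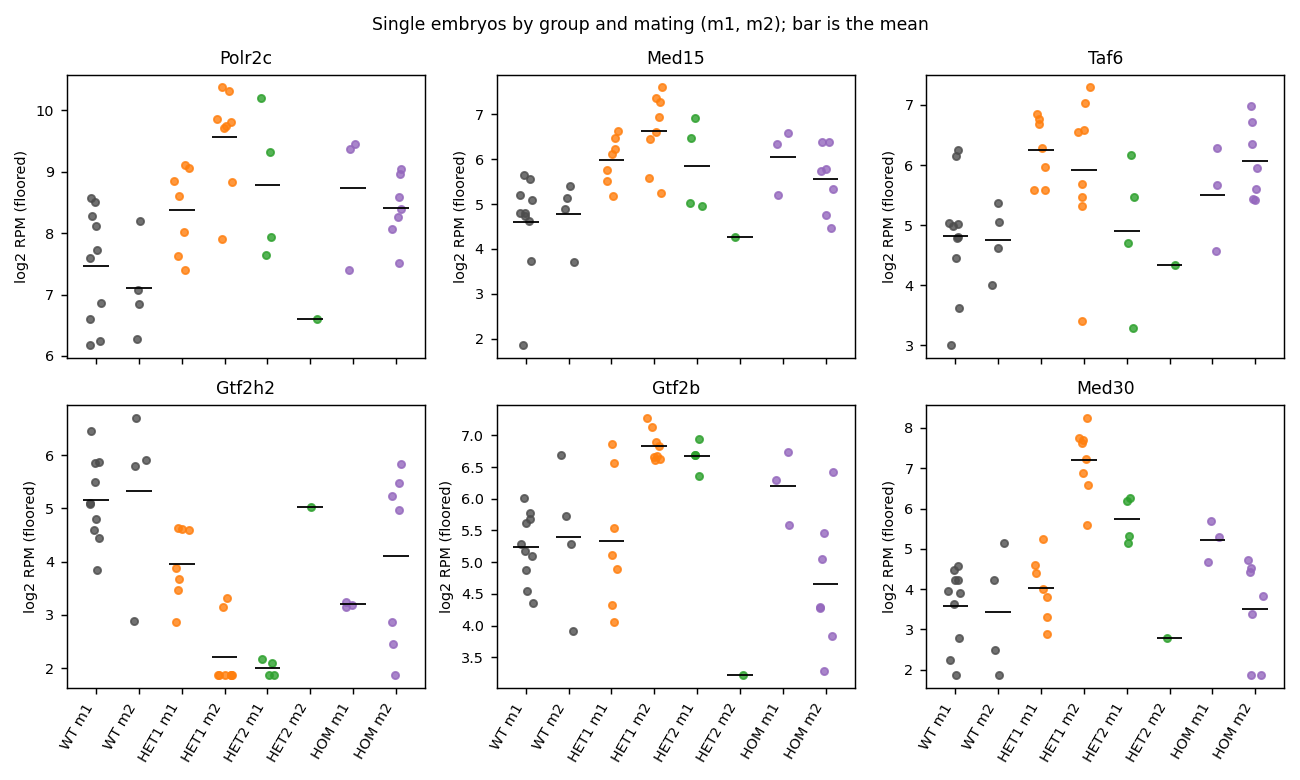
log2 RPM, floored at 1.86, of 6 members in each of 44 embryos, by group and mating (m1, m2), with the mean as a bar. Polr2c, Med15 and Taf6 sit higher in both HET1 litters than in the WT litters, while Gtf2b and Med30 are higher in HET1 m2 than m1 and lower in m2 than m1 of HET2 and HOM.

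The largest differences among the members were between the 2 litters of HET1, which are labelled with the same genotype. Dppa2 itself had medians of 7.18 in mating 1 and 5.60 in mating 2 of HET1, and Dppa4 6.20 and 4.71. limma called 36 of 93 members between mating 2 (8 embryos) and mating 1 (7 embryos), or 38.7%, beside 16.6% of all genes and 29.5% of genes with a mean of at least 3 log2 RPM. In mating 2, 28 members were lower (30.1%) and 8 higher (8.60%), where 11.6% of all genes were lower and 4.96% higher, and 21.8% and 7.73% of genes with a mean of at least 3 log2 RPM. The split was 19 lower and 12 higher when each embryo was re-centred on its median, and 21 lower and 6 higher with limma voom on recovered reads. Of all 16412 genes, 3026 and 2012 were called in these settings. Without embryos under 500000 reads, which left 4 and 5 embryos, 12 members were called, all among the 36, beside 1118 of all genes. Of the 36 called members, 17 had at least 1 embryo at the floor, so the sizes of their differences depend on it. The median difference of the members was -0.59, beside -0.38 for genes with a mean of at least 3 log2 RPM.

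Of the 28 polymerase subunits, 14 were lower and 1 higher in mating 2, where 11.6% of all genes were lower and 4.96% higher. Of genes with a mean of at least 3 log2 RPM, 21.8% were lower. In polymerase III 7 of 10 were lower, among them Polr3a, Polr3e, Polr3f and Polr3g, and the summed RPM of its subunits was 501.6 to 1060 in the mating 1 embryos and 179 to 439 in the mating 2 embryos, without overlap. Polr3e, on chromosome 7 (120917744-120947432), had 5.75, 6.56 and 7.36 as the lowest, median and highest embryo of mating 1 and 2.25, 4.57 and 5.94 of mating 2, a difference of -2.17 ± 0.42 (SE; adjusted p = 0.00037, limma), and the values of the litters overlapped. In polymerase I, Polr1a, Polr1c and Polr1e were lower, with Polr1e at -1.92 ± 0.48 (SE). Of the shared subunits, Polr2e, Polr2h and Polr2l were lower, with Polr2h at -2.23 ± 0.45 (SE). The summed RPM of the shared subunits was 437 to 864 in mating 1 and 155 to 394 in mating 2, also without overlap. In polymerase II proper, Polr2m was lower and Polr2g, which with Polr2d forms the stalk, was higher by 2.02 ± 0.54 (SE).

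TFIIH had 4 of 5 subunits lower in mating 2, Gtf2h1, Gtf2h2, Gtf2h4 and Gtf2h5. Gtf2h4 was between 3.40 and 5.73 in all 7 embryos of mating 1 and between 1.86 and 1.92 in all 8 of mating 2, which is at or next to the floor, so its difference of -2.31 ± 0.52 (SE) depends on the floor. In the kinase part of TFIIH, the partners Mnat1 and Cdk7 were lower, with differences of -1.76 ± 0.33 and -1.30 ± 0.44 (SE). Taf1c of SL1 had 4.25, 6.17 and 7.03 in mating 1 and 1.86, 1.89 and 5.97 in mating 2, or -3.39 ± 0.62 (SE; adjusted p = 0.00017, limma). It was at the floor in 4 of the 8 mating 2 embryos, and it shares 584 exon bases with Dnaaf1. In Mediator, Med17 and Med16 were lower, with differences of -2.71 ± 0.52 and -2.38 ± 0.57 (SE) and with 2 and 4 of the 8 mating 2 embryos at the floor, as were Med6, Med8, Med9 and Med31.

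The members higher in mating 2 were Med30, Taf9b, Polr2g, Gtf2a2, Gtf2b, Med27, Med10 and Taf5. For Med10, 4168 of 4491 exon bases are also exon of Gm26819 on the opposite strand, so its call cannot be assigned to Med10. Med30, on chromosome 15 (52712408-52730564), had 2.88, 4.00 and 5.23 in mating 1 and 5.60, 7.43 and 8.25 in mating 2, a difference of 3.17 ± 0.50 (SE; adjusted p = 2.4e-05, limma), without overlap. Taf9b, on chromosome X (106206883-106221158), had 1.86, 4.85 and 5.62 in mating 1 and 5.67, 6.61 and 8.21 in mating 2. Gtf2b, the TFIIB gene, which places the polymerase at the start site, had 4.06, 5.12 and 6.86 in mating 1 and 6.61, 6.76 and 7.28 in mating 2, a difference of 1.50 ± 0.40 (SE). Gtf2a2, the small TFIIA subunit, was higher by 1.61 ± 0.37 (SE). The 15 TFIID subunits thus had 2 higher, 0 lower and 13 not called, and the summed RPM of the 14 without Taf9, from 1232 to 1752 in mating 1 and 1111 to 1731 in mating 2, overlapped.

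Of the 36 members called between the litters, 5 had values without overlap, among them Gtf2h4 and Med9, which were lower, and Med30 and Taf9b, which were higher. These 5 are 5.38% of the 93 members and 13.9% of the called ones, where 2.97% of all genes tested, and 17.9% of those called, were called without overlap. The partners showed 18 of 62 called (29.0%), 16 of them lower and 2 higher, beside 16.6% of all genes and 29.5% of genes with a mean of at least 3 log2 RPM. Nelfe of NELF (-3.22 ± 0.54, SE), the polymerase III factor Brf2 (-2.98 ± 0.54) and the polymerase I factor Ubtf (-2.46 ± 0.53) were among the lower ones.

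To show the start-site regions of members that moved furthest in each direction, the 120 bases before the RefSeq start of 4 of them are given here on the gene's strand (GRCm38.p6), the 2 lower and the 2 higher genes with the largest differences whose window holds no annotated exon. The differences of Med16 and Gtf2h4 rest in part on embryos at the floor. Capitals mark a match to a motif, on either strand. The motifs searched were the GC box, GGGCGG, the CCAAT box, whose name spells its letters, the ETS core, CCGGAAG, and the TATA box, TATAAA, and no 2 different motifs overlapped in these windows.
Med16, lower, chr10:79908939-79909058, - strand: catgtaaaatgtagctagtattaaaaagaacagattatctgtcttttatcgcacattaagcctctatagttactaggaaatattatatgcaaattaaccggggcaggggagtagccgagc
Gtf2h4, lower, chr17:35673744-35673863, - strand: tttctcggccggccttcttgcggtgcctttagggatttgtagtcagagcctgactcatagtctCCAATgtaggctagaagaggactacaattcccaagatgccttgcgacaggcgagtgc
Taf9b, higher, chrX:106221159-106221278, - strand: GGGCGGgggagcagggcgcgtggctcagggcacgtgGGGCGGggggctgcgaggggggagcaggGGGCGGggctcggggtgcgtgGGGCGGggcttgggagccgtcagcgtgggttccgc
Gtf2a2, higher, chr9:70012428-70012547, + strand: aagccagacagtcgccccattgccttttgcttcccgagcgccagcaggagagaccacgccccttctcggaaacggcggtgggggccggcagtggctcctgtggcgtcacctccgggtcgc
Taf9b holds the GC box, Gtf2h4 a CCAAT box, and Med16 and Gtf2a2 none of the 4 motifs. Of the 80 members found in the RefSeq promoter table, 43 had a GC box in this window (53.8%), against 26.5% of all 32851 promoters of the table, and 16 had an ETS core (20.0% against 4.99%). A CCAAT box was in 19 (23.8% against 21.3%) and a TATA box in 3 (3.75% against 6.34%). The promoters of the table were not limited to those of genes with reads in these embryos, so the sets compared are unlike. Whether the members differ in these motifs from other genes with reads was not tested. The GC box was in 15 of the 24 lower and 2 of the 6 higher members with an entry.

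The litters of the cKO-x-HET cross, fitted with genotype, had 4 members called, 4.30% of the 93 beside 3.41% of all genes and 6.65% of genes with a mean of at least 3 log2 RPM. Gtf2a1 and Gtf2b were lower and Med31 and Polr2h higher in mating 2 (8 embryos) than in mating 1 (7 embryos). Gtf2a1 had 9.90, 10.11 and 10.26 as the lowest, median and highest embryo of mating 1 and 9.13, 9.38 and 9.74 of mating 2, without overlap, a difference of -0.72 ± 0.12 (SE; adjusted p = 0.009, limma). Gtf2b had 5.59, 6.69 and 6.95 in mating 1 and 3.21, 4.28 and 6.43 in mating 2, a difference of -2.08 ± 0.51 (SE). Med31 had 6.52, 7.19 and 7.74 in mating 1 and 7.78, 8.32 and 8.66 in mating 2, without overlap, and Polr2h differed by 1.49 ± 0.37 (SE). Calls without overlap were 2 of the 93 members (2.15%) and 1.63% of all genes tested. The call of Gtf2b was lost without any 1 of the 5 HET2 embryos, and without HET2 replicate 5, the single HET2 embryo of mating 2, only Med31 was called. Only 1 of the 2 higher calls stayed without HET2 replicate 1, 2 or 3, and neither stayed without embryos under 500000 reads.

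Set side by side, the litter differences of the HET1 and cKO-x-HET crosses, which share no embryo, had opposite signs in 76 of the 93 members (81.7%). Across members Pearson's r was -0.86 and Spearman's rho -0.84, given as a description, since the members of a litter share their libraries. Among all genes with a mean of at least 3 log2 RPM the share was 77.5% and r was -0.77. Of the 36 members called between the HET1 litters, 35 had the opposite sign in the cKO-x-HET cross, the exception being Polr1a, and the share was 94.5% for the called genes with a mean of at least 3. Med30, for one, differed by 3.17 in HET1 and by -2.05 in the cKO-x-HET cross, and Med17 by -2.71 and 1.49.

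**Figure D4:**
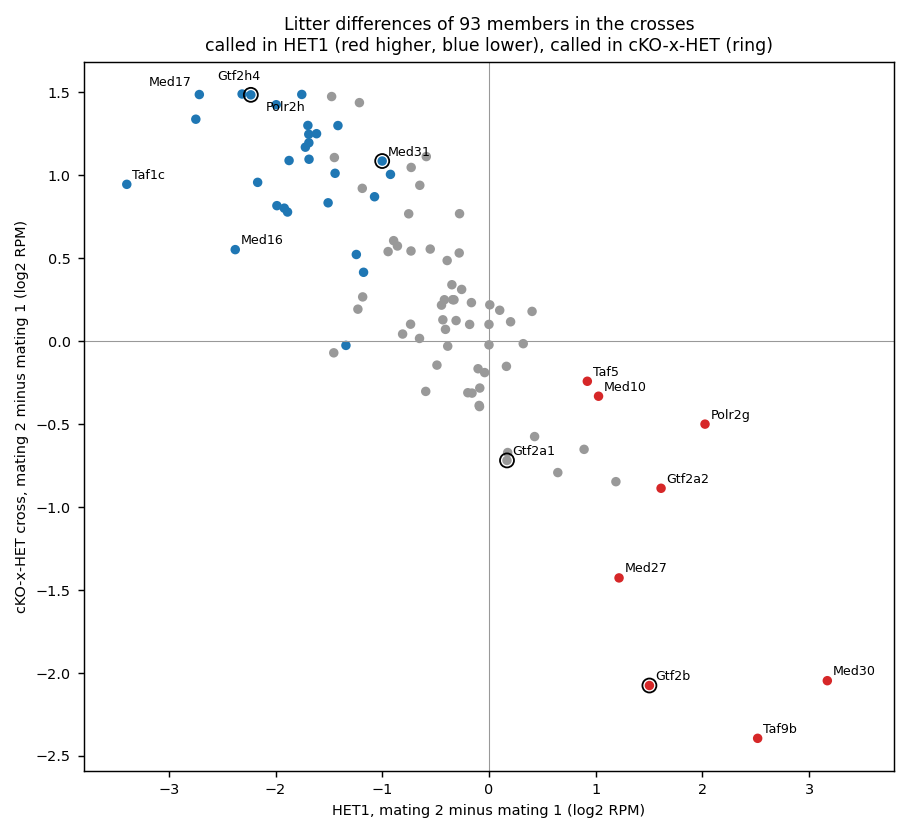
Difference between mating 2 and mating 1 in log2 RPM for 93 members, in HET1 on the horizontal and in the cKO-x-HET cross on the vertical axis; colours mark members called in HET1 and rings those called in the cKO-x-HET cross. The members run from the upper left (Taf1c, Med17) to the lower right (Med30, Taf9b), with 76 of 93 of opposite sign.

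The sums of marker genes of the embryo's stage differed between these litters too. The summed RPM of 7 genes of the 2-cell programme (the Zscan4 and Tcstv genes, Zfp352, Tmem92 and Duxf3) had medians of 82.0 and 643 in HET1 mating 1 and mating 2, and of 316 and 68.7 in mating 1 and mating 2 of the cKO-x-HET cross. The sum of 6 oocyte transcripts (Gdf9, Bmp15, Zp3, Oosp1, Omt2a and Mos) ranged from 1685 to 4566 and from 4697 to 9088 in the HET1 litters, and from 5247 to 6882 and from 1207 to 3545 in the cKO-x-HET litters, without overlap in either cross. Omt2a carried most of the oocyte sum, with median log2 RPM of 10.94 and 12.05 in the HET1 litters and 12.02 and 10.80 in the cKO-x-HET litters, and Oosp1, Bmp15 and Gdf9 had their higher medians in the same litters. Zp3 went the other way, with medians of 6.26 and 5.27 in HET1 and 4.69 and 6.07 in the cKO-x-HET cross. Mos and Duxf3 had medians at the floor, 1.86, in all 4 litters. The 8 cumulus and granulosa markers summed to 0 to 17.7 RPM over all embryos, and Fshr had no read in any. The part of these markers' shift in the members' litter differences was not tested.

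The 2 WT litters differed in 1 member, Med1, the Mediator subunit bound by nuclear receptors, at 1.08% of the 93 beside 2.55% of all genes. Med1 was between 6.89 and 8.41 in the 10 embryos of mating 1. In the 4 embryos of mating 2 it was 3.49, 7.12, 7.13 and 7.95, a difference of -1.37 ± 0.39 (SE; adjusted p = 0.046, limma). Without the embryo at 3.49, WT replicate 11, the difference was -0.40 (adjusted p = 0.78, limma; 0.0029 to 0.78 over all 14 alternatives). The call was also lost with no filter, with re-centring, with array weights and without embryos under 500000 reads, all of which kept this embryo.

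**Figure D5:**
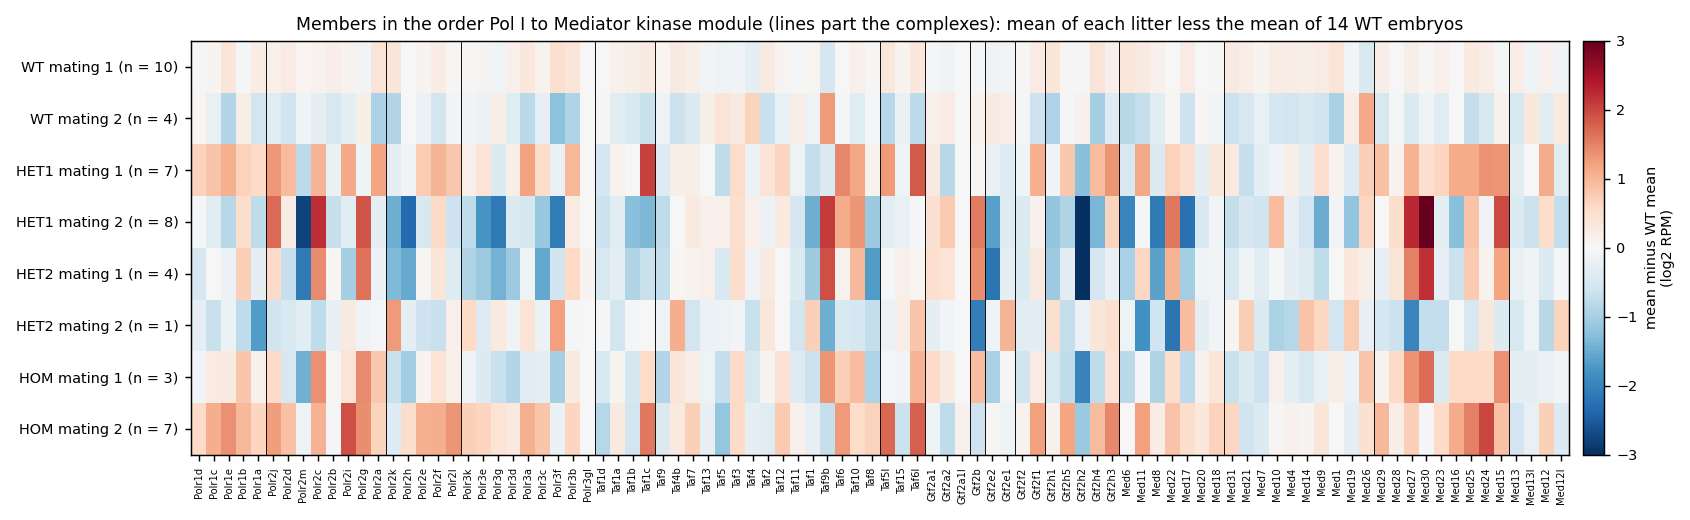
Mean of each group and mating less the mean of 14 WT embryos, in log2 RPM, for 92 members in the order polymerase I to Mediator kinase module, with red above and blue below the WT mean. Gtf2h2 is below the WT mean in all 6 sets of HET1, HET2 and HOM embryos, and Med30 is above it in all of them but HET2 and HOM mating 2.

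The litter pattern can be followed in single genes across all groups. Gtf2h2 had litter medians of 5.10 and 5.85 in WT, 3.88 and 1.86 in HET1, 1.98 and 5.02 (1 embryo) in HET2 and 3.19 and 4.96 in HOM embryos, for mating 1 and mating 2. Med30 had medians of 3.92 and 3.36 in WT, 4.00 and 7.43 in HET1, 5.76 and 2.80 in HET2 and 5.30 and 3.83 in HOM embryos. Both genes thus had the higher and the lower median in opposite matings of HET1 and of the cKO-x-HET cross. Polr2b had litter medians between 6.34 and 7.04 in all 8 sets of embryos, and Med13 between 8.09 and 8.83.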

How the data were processed

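Single-embryo Smart-seq2 libraries of 44 embryos were analysed. Per the labels and the study's methods, the authors trimmed reads with Trim Galore 0.6.5 (cutadapt 2.3), aligned them to GRCm38 with HISAT2 2.1.0 and deposited log2 RPM values per gene from SeqMonk, counted without strand. In these values a gene without reads is set to 0.9 read, so the lowest value depends on depth (-1.81 to 1.86 log2 RPM). Whole reads were recovered from the deposited values (99.9997% within 0.05 read of a whole number), and the rows hold 67.9% to 84.8% of the reads that the authors' scaling used.

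Here all values were floored at 1.86 log2 RPM and genes with a mean deposited value of at least 0 were kept (16412). limma 3.58.1 (lmFit, eBayes with trend; R 4.3.3) compared the 4 groups in one fit, HOM and HET2 with the litter as a covariate, and litters within a cross, with Benjamini-Hochberg adjustment over all genes at 0.05. The alternatives were other floors, filters and scalings, limma voom on recovered reads (chosen after seeing the data), weights, litter and depth terms, and leaving out litters or embryos. P-values measure the spread between embryos, which share litters. All 94 members were found in GENCODE vM21, 91 of them with the same span. Steps were tested on simulated data. Named genes were the core subunits, the called members, paralogue pairs, the highest and lowest member of each complex per length and up to 6 called partners per comparison; the list of called members named in the text runs past the 10 first set for each comparison, and single genes beyond this rule (Taf5 and Med24 in HOM, Gtf2h2 in HET2, Taf1c in HOM against HET2, Mnat1 and Cdk7 between litters) were chosen after their values were seen. The members and lists were chosen with earlier results of these data known. The annotation release behind the deposited genes is not given in the sources used here. The values of 1 member are not reported here singly, though it stays in the fits and counts.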

Additional observations from a re-analysis of the deposited data

Results flagged for a closer look

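Of 62 groups of values examined for a single outlying embryo (31 genes, the core subunits and the members called between HET1 and WT, each in the 5 HET2 and the 10 HOM embryos), 6 had an embryo whose gap to its nearest neighbour was above Dixon's 95% critical value, where chance flags about 1 in 20 groups of like embryos, a rate that embryos of 2 litters need not follow. Of these, 4 came from HET2 embryo 5, the only HET2 embryo of mating 2. It had 9.28 log2 RPM of Gtf2a1 against 9.90 to 10.12 in the other 4, 3.21 of Gtf2b against 6.36 to 6.95, 7.79 of Gtf2h1 against 6.13 to 6.32, and 5.02 of Gtf2h2 against 1.86 to 2.17. For all 4 genes the differing embryo is also the one from the other litter, so embryo and litter cannot be told apart. HET2 embryo 3 had 2.10 log2 RPM of Taf1 (3 reads) against 6.19 to 7.08. HOM embryo 2 had 3.16 log2 RPM of Polr2m (7 reads) against 5.71 to 7.35.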

How the results depend on the processing

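Between HOM and WT and between HOM and HET2, 0 members were called under every alternative run. In HET1 against WT the count moved from 14 to 9 with no filter, to 0 with litter as a random effect, litter means as replicates or total reads as a covariate, to 27 and 0 without the mating 1 and the mating 2 litter of HET1, to 1 without the WT litter of mating 1, and to 7 without embryos under 500000 reads; Gtf2h2, Polr2m, Polr2j, Med15, Med27, Med30 and Taf6 were those 7. The deposited values gave 20 (10 higher, 10 lower), re-centring 17 (8 and 9) and limma voom on recovered reads 16 (8 and 8). Of all 16412 genes they called 4054, 932 and 2520, beside 745 in the main fit. The members' share was thus below that of all genes on the deposited values and near it with voom. With no filter 390 of 35269 genes were called, and without embryos under 500000 reads 171 of 16412. In HET2 against WT, 1 member (Gtf2h2) was called with array weights and without the cKO-x-HET mating 2 litter, and 0 to 1 when a HET2 embryo was left out. In the same order, 114, 24 and 3 to 38 of all genes were called. Between the HET1 litters, 12 members and 1118 of all genes were called without embryos under 500000 reads. Between the cKO-x-HET litters the count of 4 became 7 on the deposited values, 2 with no filter, 9 among genes with a mean of at least 3, 7 with array weights, 2 without embryos under 500000 reads, and 1 to 3 without a HET2 embryo. In the same order, 970, 256, 1004, 1009, 281 and 149 to 539 of all genes were called, beside 560 in the main fit. The 9 were of 89 members and the 1004 of 6919 genes, so the members' share was the lower there. Between the WT litters the 1 call became 0 with no filter, re-centring, array weights or without embryos under 500000 reads, 4 with voom, and 0 to 6 without 1 of the 4 mating 2 embryos (like voom, an alternative chosen after seeing the data). The calls among all genes were 288, 355, 300 and 346 in the settings first named. They were 903 with voom and 222 to 938 without 1 of these embryos. The planned fit of recovered reads with TMM factors was computed and then withdrawn, since its tool takes counts only; it called more members than limma on the floored values for HET1 against WT and for the cKO-x-HET and WT litters, fewer for the HET1 litters, and its counts are not given. The cause of these changes was not tested.

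With the mating number as a replicate block, 10 members were called between HET1 and WT, all among the 14, and 0 for HOM and HET2 against WT; without the litter term 0 were called between HOM and HET2. The mating numbers do not pair litters: over 6919 genes, the mating 2 minus mating 1 differences of the crosses correlated by 0.45, -0.45 and -0.82. No paired analysis was possible for the litter comparisons because the number defines them. No named gene with a call changed sign under any alternative. Depth limits the low members: 3.63 RPM is 11.5 reads in the deepest embryo and 0.9 read in the shallowest.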
